A study of Mus musculus with 16 samples.

Results

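Growing mouse embryonic stem (ES) cells homozygous for an inactivated allele (-/-, KO) were compared with growing ES cells of the +/+ genotype (WT). The comparison took every array of growing cells, 3 KO and 3 WT, which is 6 of the 16 arrays of the series, and the measure was the difference between group means of log2(intensity + 16), KO minus WT. Per the labels, the lines share a mixed 129/C56Bl/6 background, and each was derived from 1 blastocyst after heterozygous mice had been crossed, so KO and WT lines come from different embryos. Cells of both genotypes grew with LIF, the cytokine that keeps mouse ES cells undifferentiated, on mitomycin-treated mouse embryonic fibroblasts. Both were left for 1 h on gelatinised dishes after trypsin to remove the fibroblasts, and RNA was then taken with Trizol. The other 10 arrays are KO and WT cells at 2 h (3 arrays each) and 24 h (2 arrays each) after gamma irradiation (8 Gy, per the labels of the 2 h samples), and they are used below as a second measurement of the same difference. The labels number the samples as experiments and do not say how many lines or cultures they came from, so a p-value here reflects the scatter among these arrays alone, and that scatter may be technical. A difference between a KO line and a WT line that does not come from the inactivated allele cannot be told apart from one that does.

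Mouse ES cells are derived from the inner cell mass of the blastocyst and renew themselves through a network of transcription factors that includes Oct4 (Pou5f1), Sox2 and Nanog. The same inner cell mass also gives rise to the primitive endoderm, a cell layer marked by Gata6, Gata4 and Sox17 that forms the visceral and parietal endoderm of the yolk sac. Withdrawal from the undifferentiated state is driven by FGF and ERK signalling, and Polycomb complexes hold developmental genes silent in ES cells. In bulk RNA, fewer cells of a type and less RNA per cell cannot be told apart.

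Intensities are in the scaled units of the deposited values, which have a trimmed mean of 100 on every array, and values for replicates 1, 2 and 3 are given in that order. A probe set is a group of oligonucleotides that measures one transcript region, and a gene can have several. After Benjamini-Hochberg adjustment over 17736 tested probe sets, 44 had an adjusted p under 0.05 in limma (0.248% of those tested), 22 higher and 22 lower in KO. Centring each array on its median gave 50, of which 35 were higher and 15 lower. The count fell to 6 without KO replicate 1, 9 without KO replicate 3, and 27 without WT replicate 1 or without KO replicate 1 of the 2 h samples, which enter the shared estimate of the spread. It was 144 with the hybridisation run as a block and 82 with array weights. Of the 44, 41 probe sets carried 1 gene symbol and stood for 38 genes (0.371% of 10252 genes), 20 higher and 18 lower. The other 3 (1 higher and 2 lower) carry no gene symbol here and are only counted. Ccnb1ip1 and Supt16 passed under all 29 other settings tried. On all 44 probe sets the KO arrays did not overlap with the WT arrays, which held for 16.5% of all tested probe sets. The smallest difference that passed was 0.56, the median size was 0.97, and 9 higher and 10 lower probe sets differed by at least 1 on the log2 scale. Most genes differed little: the median difference over all genes was -0.04, and 95.2% lay within 0.5 of 0.

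**Figure D1:**
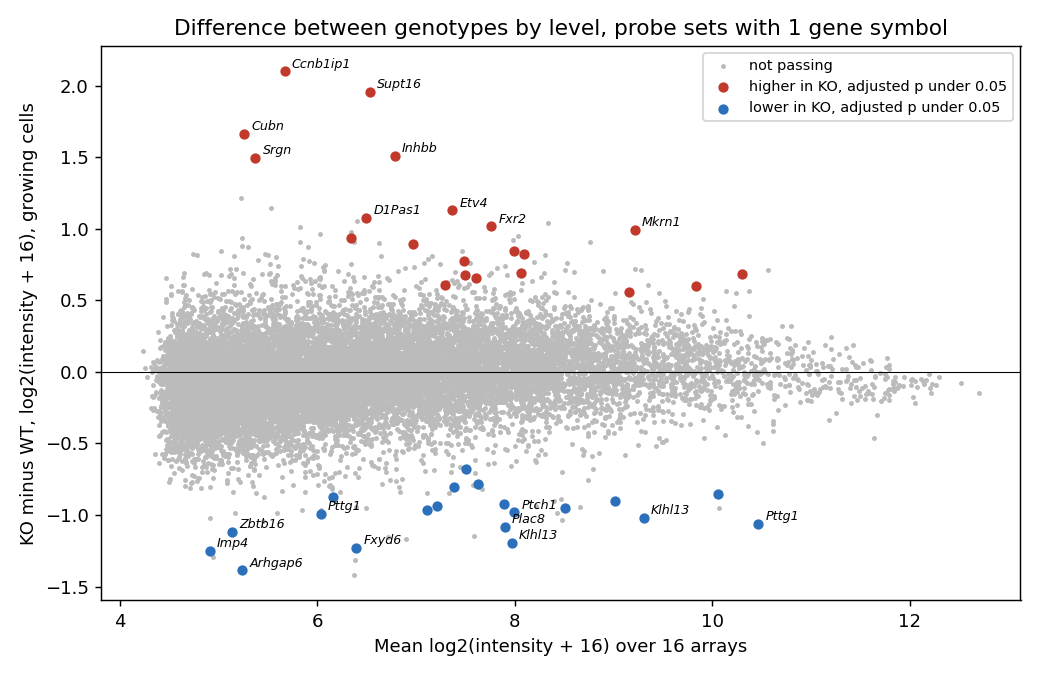
KO minus WT difference in growing cells (vertical axis, log2(intensity + 16)) against the mean level over all 16 arrays (horizontal axis, log2(intensity + 16)) for each tested probe set with 1 gene symbol. Coloured points have an adjusted p under 0.05. Ccnb1ip1 at 2.10 and Supt16 at 1.96 lie highest, Arhgap6 at -1.39 lies lowest among the coloured points, and some grey points lie as far from 0 without passing.

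Both genes with the highest differences lie on mouse chromosome 14, as does Rpgrip1, which is the neighbour of Supt16 and was lower in KO. RefSeq promoter windows (250 bases before to 50 after the start, build GRCm38.p6, 5′ to 3′ on the gene's strand) are shown for these 3 genes and for Inhbb and Trh, the secreted signalling genes among those that passed. Capitals mark matches on either strand to the CCAAT box (CCAAT), the GC box (GGGCGG), the TATA box (TATAAA) and the ETS core (CCGGAA), the core bound by ETS factors such as Etv4. The windows are chr14:50795679-50795978 (minus strand) for Ccnb1ip1, chr14:52197190-52197489 (minus) for Supt16, chr14:52110653-52110952 (plus) for Rpgrip1, chr1:119422199-119422498 (minus) for Inhbb and chr6:92244601-92244900 (minus) for Trh.
Ccnb1ip1: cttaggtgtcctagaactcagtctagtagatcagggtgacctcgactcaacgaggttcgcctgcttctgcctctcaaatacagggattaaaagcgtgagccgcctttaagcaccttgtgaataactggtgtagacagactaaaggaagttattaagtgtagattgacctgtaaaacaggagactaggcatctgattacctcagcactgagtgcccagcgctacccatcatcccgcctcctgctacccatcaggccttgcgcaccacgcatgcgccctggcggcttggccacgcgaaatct
Supt16: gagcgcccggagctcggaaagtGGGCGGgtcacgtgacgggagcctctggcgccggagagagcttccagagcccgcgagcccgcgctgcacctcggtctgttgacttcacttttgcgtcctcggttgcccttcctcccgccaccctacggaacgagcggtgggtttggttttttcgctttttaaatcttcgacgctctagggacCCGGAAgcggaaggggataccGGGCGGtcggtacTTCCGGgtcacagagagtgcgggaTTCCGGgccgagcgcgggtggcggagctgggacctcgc
Rpgrip1: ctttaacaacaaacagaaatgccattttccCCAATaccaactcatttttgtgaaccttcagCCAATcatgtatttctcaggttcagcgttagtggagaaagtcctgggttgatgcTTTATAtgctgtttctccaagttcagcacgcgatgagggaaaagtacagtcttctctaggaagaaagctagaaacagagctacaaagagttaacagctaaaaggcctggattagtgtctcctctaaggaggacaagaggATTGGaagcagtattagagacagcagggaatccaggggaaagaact
Inhbb: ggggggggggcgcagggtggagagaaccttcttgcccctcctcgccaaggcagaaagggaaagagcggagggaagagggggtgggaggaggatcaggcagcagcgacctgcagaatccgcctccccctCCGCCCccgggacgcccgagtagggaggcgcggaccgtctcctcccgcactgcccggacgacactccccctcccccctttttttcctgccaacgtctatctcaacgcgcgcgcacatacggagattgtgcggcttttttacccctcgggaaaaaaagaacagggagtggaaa
Trh: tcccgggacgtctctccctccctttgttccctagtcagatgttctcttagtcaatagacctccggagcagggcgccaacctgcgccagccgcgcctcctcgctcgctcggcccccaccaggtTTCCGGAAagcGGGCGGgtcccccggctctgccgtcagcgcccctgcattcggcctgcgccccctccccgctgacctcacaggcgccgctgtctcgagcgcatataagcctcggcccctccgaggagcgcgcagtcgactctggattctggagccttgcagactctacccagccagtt
The Supt16 window holds 35 CpG dinucleotides, 2 GC boxes and 3 ETS cores, whereas the Ccnb1ip1 window holds 13 CpG dinucleotides and none of the 4 motifs. The Rpgrip1 window is poor in CpG (3) and holds 3 CCAAT boxes and 1 TATA box. It lies inside the annotated gene (52104241 to 52161339) and not at its annotated 5′ end. The Trh window holds 28 CpG, 1 GC box and 2 ETS cores that overlap each other, and the Inhbb window holds 23 CpG and 1 GC box.

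Over all RefSeq windows of this length (32851), 37.4% hold a CCAAT box, 35.7% a GC box, 13.6% a TATA box and 14.9% an ETS core. The 25 windows of 19 genes that were higher in KO hold a GC box in 15 (60.0%), an ETS core in 9 (36.0%), a CCAAT box in 6 and a TATA box in 2. The 25 windows of 17 genes that were lower hold a GC box in 12 (48.0%), a CCAAT box in 10 (40.0%), an ETS core in 6 (24.0%) and a TATA box in 4. Windows of the same gene can overlap, and the median number of CpG is 28 in the windows of higher genes, 13 in those of lower genes and 7 in all windows. All windows include genes that ES cells do not express, so these shares describe the windows and were not tested.

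The 6 arrays of growing cells correlated with one another at 0.973 to 0.987 over the probe sets. Hybridisation runs were inferred here from the recorded start times, a start within 10 min of the one before counting as the same run. By this grouping KO 1 and WT 1 were hybridised in run 1, and KO 3 and WT 3 in run 4 on another day. KO 2 was in run 3 and WT 2 in run 2, so runs 1 and 4 hold both genotypes. WT 1 had a high 18S control signal (976, against 51.6 to 93.9 on the other growing arrays). The summed intensity of 8 ES cell markers was 10542, 10367 and 12314 on the KO arrays, against 10316, 10591 and 10923 on the WT arrays. The sum of 12 feeder fibroblast markers was 1747, 1916 and 2312 on the KO arrays, against 1221, 1799 and 2822 on the WT arrays. Fn1 and Acta2 were the brightest of them and weigh most in it. Some dimmer markers, named after their values were seen, spread more widely between replicates. Col1a1 had 55.0, 51.1 and 149 on the KO arrays, against 15.2, 49.4 and 198 on the WT arrays. Postn had 23.4, 16.9 and 61.9 on the KO arrays, against 8.99, 19.4 and 124 on the WT arrays. Replicate 3 was thus the highest in both genotypes, the list of 23 feeder genes had 0 genes at an unadjusted p under 0.05, and its median was -0.07 (0.14 in run 1, -0.38 in run 4 and, with the sign turned, 0.0039 after median centring). The sum of 8 primitive endoderm markers was 399, 325 and 469.5 on the KO arrays, against 247, 317 and 313 on the WT arrays. WT 2 stood apart by its keratins. Krt8 had 97.4, 158 and 103 on the KO arrays, against 105, 737 and 121 on the WT arrays, and Krt18 had 104, 177 and 62.7 on the KO arrays, against 116, 601 and 106 on the WT arrays, whereas trophectoderm factors Cdx2 and Elf5 stayed under 20 on every array, Gata3 was too dim to be tested, and Eomes lay between 24.4 and 33.1 on every growing array. The trophectoderm list had a median of -0.16 (-0.07 after median centring), 0 higher and 2 lower of 16. Without WT 2, 46 probe sets passed in growing cells, 20 of them among the 44, while dropping both arrays with much 18S signal (WT 1 and KO 2 of 2 h) left 23, of which 20 were among the 44. The part of feeder or keratin-bearing cells in the differences between genotypes was not tested.

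Ccnb1ip1, a ubiquitin ligase known from crossover formation in meiosis, had intensities of 100.1, 92.6 and 88.4 on the KO arrays, against 14.7, 7.08 and 7.59 on the WT arrays. The groups were far apart, and the difference was 2.10 ± 0.18 (adjusted p = 1.74e-06). Its mean in WT cells was under the floor of the filter on low values (an intensity of 11.9), so its fold is a bound: at least 7.32-fold higher in KO cells against that floor. Supt16, the large subunit of the histone chaperone FACT, had 182, 181 and 181 on the KO arrays, against 32.3, 30.3 and 42.6 on the WT arrays. The KO values lay close together, well above all WT values, and the difference was 1.96 ± 0.15 (adjusted p = 3.2e-07). A brighter probe set of Supt16 had a mean of 833 ± 87.5 in KO cells and 513 ± 138 in WT cells (SD, n = 3 each), and its difference of 0.71 ± 0.18 (adjusted p = 0.122) did not pass. Rpgrip1, a ciliary protein of photoreceptors, had 797, 718 and 888 on the KO arrays, against 1388, 1430.0 and 1548 on the WT arrays. All KO values were below all WT values, with a difference of -0.85 ± 0.13 (adjusted p = 0.00577). Only this probe set of Rpgrip1 was bright. A dim one had means of 16.3 in KO and 23.4 in WT cells, a difference of -0.29 ± 0.17 (adjusted p = 0.544). At 2 h after irradiation that dim probe set had 0.25. The remaining probe sets, with means of 6.40 and 0.54 in KO and 4.85 and 2.70 in WT cells, were too dim to be tested. Rpgrip1 and Supt16 run towards each other and their annotated ends overlap, so signal from that shared stretch cannot be assigned to either by position alone.

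**Figure D2:**
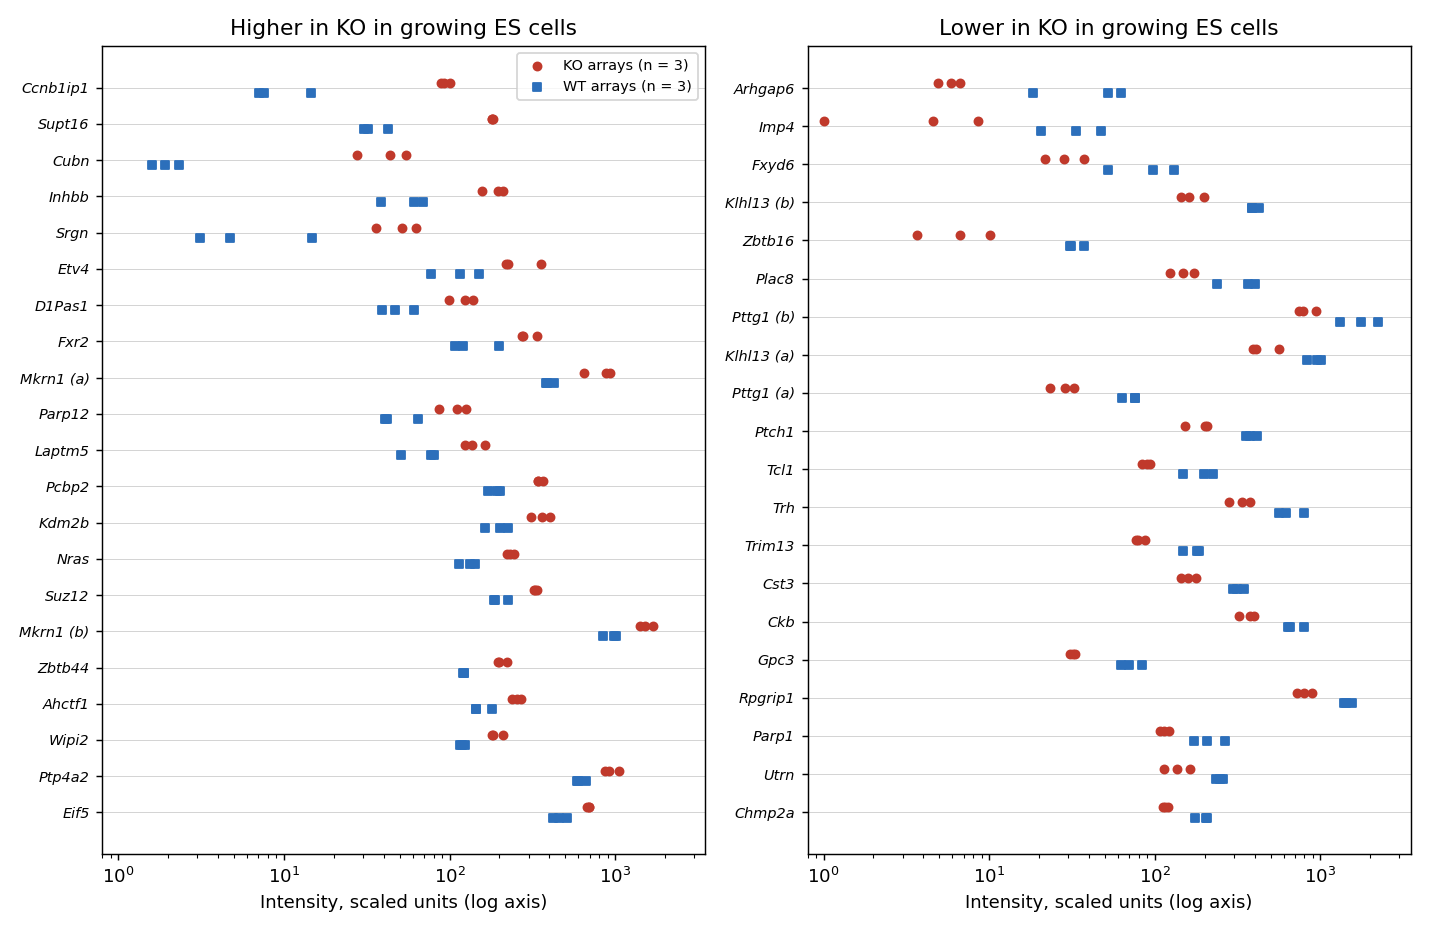
Intensity in scaled units (horizontal log axis) on each array of growing cells for the 41 named probe sets with an adjusted p under 0.05, KO arrays as circles above WT arrays as squares, 3 arrays each. Genes higher in KO are on the left, from Ccnb1ip1 (2.10) down to Eif5 (0.56), and genes lower in KO on the right, from Arhgap6 (-1.39) down to Chmp2a (-0.68); (a) and (b) mark probe sets of the same gene, and no gene's circles overlap its squares.

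Among secreted ligands and their pathways, the activin subunit gene Inhbb was higher in KO, and Ptch1 and Gpc3 of the Hedgehog pathway and the hormone gene Trh were lower. Inhbb, which encodes the beta B chain of activin B and inhibin B, had 209.7, 157 and 196 on the KO arrays, against 68.7, 38.6 and 61.4 on the WT arrays. Every KO array was above every WT array, and the difference was 1.51 ± 0.26 (adjusted p = 0.013). Its other probe set had 0.59 ± 0.22 (adjusted p = 0.329) and did not pass. Ptch1, the Hedgehog receptor and itself a transcriptional target of the pathway, had 207, 201 and 152 on the KO arrays, against 416, 354 and 375 on the WT arrays. The KO values were lower without overlap, with a difference of -0.98 ± 0.19 (adjusted p = 0.0373), and a dimmer probe set of the gene had -0.85 ± 0.22 (adjusted p = 0.135). Gpc3, the X-linked glypican that binds Hedgehog ligands at the cell surface, had 32.2, 33.1 and 30.7 on the KO arrays, against 62.7, 84.0 and 70.3 on the WT arrays, with a difference of -0.87 ± 0.16 (adjusted p = 0.0311). Trh, the precursor of thyrotropin-releasing hormone, had 335, 281 and 378 on the KO arrays, against 561, 793 and 617 on the WT arrays. Every KO array was below every WT array, with a difference of -0.95 ± 0.16 (adjusted p = 0.0105).

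Intracellular signalling genes changed in both directions. Etv4, an ETS-family factor that FGF signals induce, had 221, 227 and 357 on the KO arrays, against 77.3, 116 and 150.2 on the WT arrays, a difference of 1.13 ± 0.22 (adjusted p = 0.0365). Nras, a small GTPase that passes receptor signals to the ERK cascade, had 231, 223 and 244 on the KO arrays, against 143, 114 and 133 on the WT arrays. The groups were narrow and apart, with a difference of 0.78 ± 0.12 (adjusted p = 0.00565), while its other probe sets had 0.69 ± 0.17 (adjusted p = 0.102) and 0.61 ± 0.19 (adjusted p = 0.241). Ptp4a2, a prenylated phosphatase of the PRL family, was at 869, 916 and 1054 on the KO arrays, against 589.5, 670.0 and 598 on the WT arrays, a difference of 0.60 ± 0.12 (adjusted p = 0.041). Tcl1, a co-activator of the kinase Akt that is expressed in early embryos and ES cells, had 92.9, 89.6 and 83.2 on the KO arrays, against 223, 199 and 149 on the WT arrays. The KO values were lower without overlap, with a difference of -0.97 ± 0.17 (adjusted p = 0.0177). Arhgap6, an X-linked GTPase-activating protein, had 4.89, 6.64 and 5.9 on the KO arrays, against 52.5, 62.5 and 18.4 on the WT arrays, and its KO mean lay under the floor, so that it was at least 3.29-fold lower against the floor. The fitted difference was -1.39 ± 0.26 (adjusted p = 0.0322), and the identifier of this probe set marks possible cross-hybridisation. Its other probe sets had -1.29 ± 0.27 (adjusted p = 0.0539) and -0.45 ± 0.17 (adjusted p = 0.341).

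Chromatin regulators and transcription factors formed a further group. Kdm2b, the histone demethylase that brings a Polycomb complex to CpG islands, had 359, 310.3 and 407 on the KO arrays, against 225, 163 and 201 on the WT arrays. All KO values exceeded all WT values, and the difference was 0.82 ± 0.16 (adjusted p = 0.0373). Suz12, a core subunit of the Polycomb repressive complex PRC2, had 337, 325 and 330.0 on the KO arrays, against 188, 186 and 225 on the WT arrays, with a difference of 0.69 ± 0.13 (adjusted p = 0.0322) on a probe set marked for possible cross-hybridisation. Zbtb44, a zinc finger protein, had 196, 198 and 221 on the KO arrays, against 122, 123 and 121 on the WT arrays, a difference of 0.68 ± 0.13 (adjusted p = 0.0328). Ahctf1, which anchors nuclear pores on chromatin, had 255, 239 and 268 on the KO arrays, against 179.7, 144 and 145 on the WT arrays, a difference of 0.65 ± 0.13 (adjusted p = 0.048). On its other probe set the groups overlapped, with a difference of 0.29 ± 0.13 (adjusted p = 0.444). Parp1, the enzyme that marks DNA breaks with poly(ADP-ribose), was lower in KO, with 122, 113 and 108 on the KO arrays, against 264, 173 and 207 on the WT arrays. The difference was -0.80 ± 0.14 (adjusted p = 0.0147), and 2 brighter probe sets had -0.48 ± 0.12 (adjusted p = 0.123) and -0.39 ± 0.13 (adjusted p = 0.278). Zbtb16, a transcriptional repressor, had 3.65, 10.1 and 6.67 on the KO arrays, against 30.9, 31.2 and 37.6 on the WT arrays. The KO values lay below the floor, at least 2.77-fold lower against it, and the fitted difference was -1.12 ± 0.23 (adjusted p = 0.048). With the hybridisation run as a block, Zbtb16 and Ahctf1 no longer passed (adjusted p = 0.0555 for each).

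Some genes that passed encode RNA-binding or translation proteins, Fxr2, Pcbp2, Eif5 and D1Pas1 being higher in KO and Imp4 lower. They were grouped after their values were seen, and the share of such genes among all genes was not counted. By the brightest probe set of each gene, 1 of 42 listed RNA-binding and decay proteins and 0 of 36 listed translation factors passed, against 0.263% of 10252 genes. Fxr2, a relative of the fragile X protein FMRP, had 276, 277 and 336 on the KO arrays, against 108, 200.1 and 119.8 on the WT arrays, a difference of 1.02 ± 0.17 (adjusted p = 0.0113). Pcbp2, which binds cytosine-rich RNA, had 369, 343 and 343 on the KO arrays, against 194, 202 and 170.1 on the WT arrays. This gave 0.84 ± 0.14 (adjusted p = 0.0105), but the brighter probe set of the gene, at 1929 ± 226 in KO cells and 1752 ± 172 in WT cells (SD, n = 3 each), had 0.14 ± 0.13 (adjusted p = 0.755). Eif5, which triggers GTP hydrolysis at the start codon, had 694, 694 and 674 on the KO arrays, against 422, 456 and 509 on the WT arrays, a difference of 0.56 ± 0.11 (adjusted p = 0.0322), and its 3 other probe sets had 0.27, 0.27 and 0.36. D1Pas1, an autosomal copy of the RNA helicase gene Ddx3x, had 139, 99.0 and 124 on the KO arrays, against 46.8, 39.0 and 60.8 on the WT arrays, a difference of 1.08 ± 0.19 (adjusted p = 0.019). The probe sequences were not analysed here, and Ddx3x itself, at 1346 ± 81.4 in KO cells and 1279 ± 107 in WT cells, had a difference of 0.07 ± 0.13 (adjusted p = 0.879). Imp4, a factor of ribosomal RNA processing, had 1.01, 8.5 and 4.55 on the KO arrays, against 20.7, 33.3 and 47.5 on the WT arrays. The fitted difference was -1.25 ± 0.22 (adjusted p = 0.0209), at least 2.68-fold lower against the floor, yet the probe set of Imp4 that was bright in both genotypes had 0.07 ± 0.16 (adjusted p = 0.915).

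Several ubiquitin ligases and securin, a protein destroyed in cell division, differed. Klhl13, an X-linked adaptor of cullin 3 ligases that acts on Aurora B in mitosis, had 409.7, 559 and 391 on the KO arrays, against 951, 828 and 1005 on the WT arrays on the brighter of its probe sets. Both probe sets passed, with -1.02 ± 0.16 (adjusted p = 0.00577) and -1.20 ± 0.17 (adjusted p = 0.00368). Pttg1, or securin, the inhibitor of separase that is destroyed at anaphase, had 943, 741 and 788 on the KO arrays, against 2220.0, 1760.0 and 1317 on the WT arrays on its brightest probe set, which is marked for possible cross-hybridisation. The difference there was -1.06 ± 0.20 (adjusted p = 0.0322), and the other probe sets had -0.99 ± 0.18 (adjusted p = 0.0298) and -0.99 ± 0.21 (adjusted p = 0.0593). Trim13, a ligase of the endoplasmic reticulum, had 77.2, 87.1 and 79.5 on the KO arrays, against 185, 149 and 179.8 on the WT arrays. The KO values were lower without overlap, with a difference of -0.94 ± 0.14 (adjusted p = 0.00577). Mkrn1, a ligase with RNA-binding zinc fingers, had 929.7, 649.5 and 882 on the KO arrays, against 384, 426 and 388 on the WT arrays. The 5 probe sets of Mkrn1 ran between 0.28 and 0.99 and 2 of them passed; near-identical processed copies of Mkrn1 are known in the mouse genome, and how the probe sets divide between them was not tested.

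The remaining genes have varied roles. Cubn, the endocytic receptor cubilin of visceral endoderm and kidney, had 54.6, 27.5 and 43.8 on the KO arrays, against 1.59, 2.31 and 1.91 on the WT arrays. All WT values were far under the floor, so that Cubn was at least 3.38-fold higher in KO cells, with a fitted difference of 1.66 ± 0.20 (adjusted p = 0.000312) and 0.93 ± 0.24 (adjusted p = 0.122) on the other probe set. The probe set that passed is marked for possible cross-hybridisation and the other is not. Srgn, the core protein of a secreted proteoglycan, had 62.5, 35.8 and 51.3 on the KO arrays, against 4.73, 3.13 and 14.8 on the WT arrays, at least 3.79-fold higher in KO against the floor. The fitted difference was 1.50 ± 0.29 (adjusted p = 0.0328), and only WT replicate 3 exceeded the floor in that genotype. Laptm5, a lysosomal membrane protein known from blood cells, had 125, 137 and 163 on the KO arrays, against 77.6, 80.0 and 51.0 on the WT arrays, a difference of 0.89 ± 0.18 (adjusted p = 0.0422), with 0.71 and 0.84 on its other probe sets, and all 3 are marked for possible cross-hybridisation. Wipi2, which acts in autophagosome formation, had 184, 179.8 and 209 on the KO arrays, against 119, 124 and 116 on the WT arrays, a difference of 0.61 ± 0.12 (adjusted p = 0.0391). Parp12, an interferon-induced ADP-ribosyltransferase, had 111, 126 and 85.9 on the KO arrays, against 64.6, 41.0 and 42.0 on the WT arrays, a difference of 0.93 ± 0.18 (adjusted p = 0.0373).

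On the lower side, Cst3, the secreted protease inhibitor cystatin C, had 159, 178 and 143 on the KO arrays, against 313, 296 and 344 on the WT arrays. The KO values were below all WT values, with a difference of -0.92 ± 0.14 (adjusted p = 0.00551). Ckb, the brain form of creatine kinase, had 321, 395 and 374 on the KO arrays, against 638, 791 and 652 on the WT arrays, a difference of -0.90 ± 0.17 (adjusted p = 0.0322). Plac8, a small cysteine-rich protein, had 148, 172 and 123 on the KO arrays, against 367, 402 and 236 on the WT arrays. WT replicate 3 was the lowest of its group and still above all KO arrays, with a difference of -1.08 ± 0.22 (adjusted p = 0.0493). Fxyd6, a modulator of the sodium pump, had 37.2, 28.5 and 21.6 on the KO arrays, against 98.2, 131 and 52.3 on the WT arrays, a difference of -1.23 ± 0.24 (adjusted p = 0.0322). Utrn, which encodes the cytoskeletal linker utrophin, had 136, 163 and 114 on the KO arrays, against 233, 257 and 248 on the WT arrays, a difference of -0.78 ± 0.16 (adjusted p = 0.048). Chmp2a, an ESCRT-III subunit of membrane scission, had 112, 120.1 and 115 on the KO arrays, against 203, 176 and 208 on the WT arrays, the smallest difference among named genes that were lower, -0.68 ± 0.14 (adjusted p = 0.0493).

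Of the 38 genes, 17 had a single tested probe set and 21 had 2 or more. Beside the probe sets that passed, 33 others of these genes were tested, of which 30 had a difference in the same direction and 24 an unadjusted p under 0.05 in that direction (10.6% of all tested probe sets in either direction). The 3 in the opposite direction were 1 of Imp4 at 0.07 and 2 dim ones of Suz12 at -0.02 and -0.03. In 27 genes the brightest probe set of the gene itself passed (0.263% of 10252 genes). Genes with more than 1 probe set that passed were Mkrn1, Klhl13 and Pttg1.

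**Figure D3:**
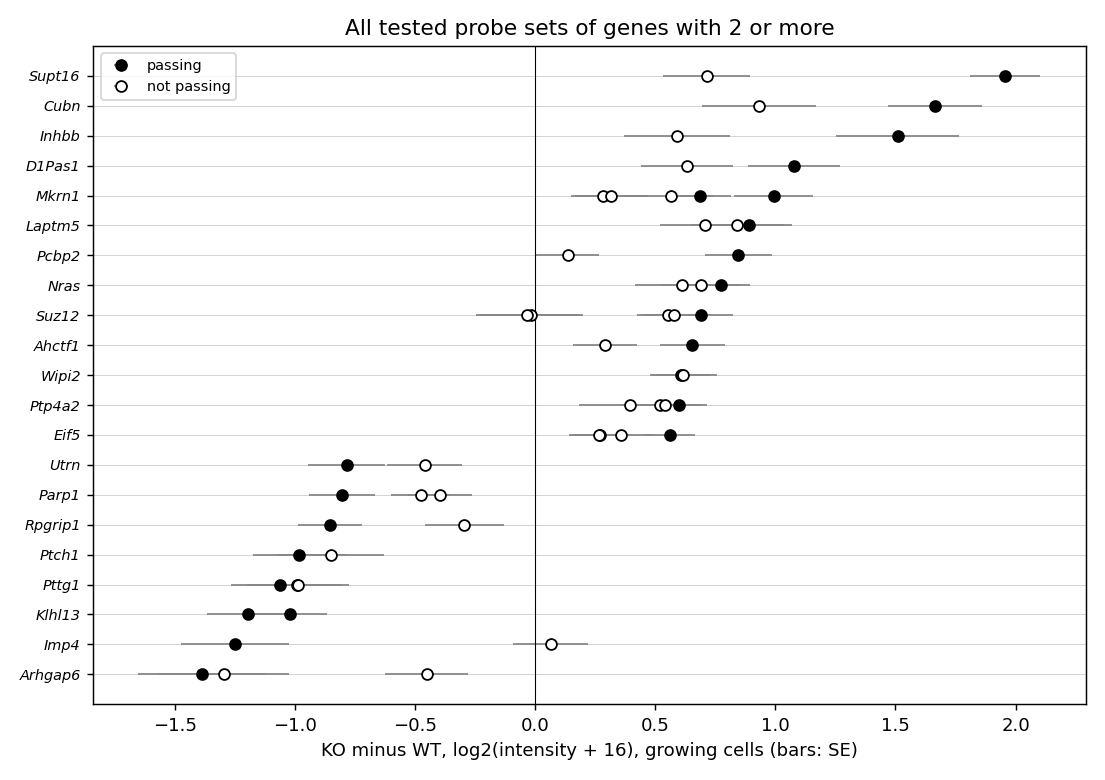
KO minus WT difference in growing cells (horizontal axis, log2(intensity + 16), bars are SE) for every tested probe set of the 21 genes with 2 or more, 1 gene per line, filled where the adjusted p was under 0.05. The probe sets of Laptm5, Nras, Wipi2, Klhl13 and Pttg1 lie close together, while those of Supt16 (0.71 and 1.96), Imp4 (0.07 and -1.25) and Pcbp2 (0.14 and 0.84) lie apart.

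By chromosome, 4 of 355 tested genes of chromosome 14 passed (1.13%), namely Ccnb1ip1, Supt16, Rpgrip1 and Trim13, against 0.371% of all genes. Between and including Ccnb1ip1 and Supt16 lie 14 tested genes. The ends of this stretch are genes that passed, so its 3 passing genes cannot be read against the share of all genes. The other 11 had differences from -0.17 to 0.49. On the X chromosome 3 of 315 genes passed (0.952%), Klhl13, Gpc3 and Arhgap6, all lower in KO. Chromosome 1 held 5 of 584 (0.856%), 3 higher and 2 lower, and chromosomes 8, 16, 17, 18 and 19 held none among 526, 331, 504, 251 and 381 tested genes. No test of clustering along the genome was made. Of 9 tested genes that mark sex, none differed at an unadjusted p under 0.05, and the median of this list was 0.07, while 1 was higher after quantile normalization and 3 were after median centring (median 0.17).

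The arrays of irradiated cells, fitted by themselves, measured the genotype difference again on 10 arrays whose means had not entered the difference in growing cells. Those arrays did enter the filter on low values and the shared estimate of spread by which the 44 were picked. The counts below are thus not fully separate from that selection. At 2 h after irradiation, 43 of the 44 probe sets differed in the same direction, 40 of them at an unadjusted p under 0.05 (14.2% of all tested probe sets in either direction), and 22 passed adjustment there too, 7 higher and 15 lower. These 22 are 50% of those that passed in growing cells and 53.7% of the 41 that passed at 2 h (0.231% of all tested). At 24 h, with 2 arrays a group, 42 kept their direction, 39 of them at an unadjusted p under 0.05 (8.87% of all tested), and 7 passed, which are 15.9% of the 44 and 87.5% of the 8 that passed at 24 h (0.0451% of all tested). Over all tested probe sets, 52.9% had the same direction at 2 h as in growing cells and 59.7% at 24 h. Over the 44, with each value signed by the direction in growing cells, the median in growing cells was 0.97, at 2 h it was 0.80 and at 24 h it was 0.81. The labels do not say whether the same lines were used in all states, and the line and the genotype cannot be told apart here either. Leaving out 1 array moved the count at 2 h to 6 (without KO 1 or KO 3 of 2 h), 10, 14 or 21 (without WT 1, WT 2 or WT 3 of 2 h), and the count at 24 h to 4 (without WT 1 of 24 h or KO 1 of 2 h) or 5 (without WT 3 of 2 h).

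Supt16 had 2.28 at 2 h and 2.24 at 24 h, Ccnb1ip1 1.66 at 2 h and 1.82 at 24 h, Cubn 1.25 at 2 h and 1.61 at 24 h and Srgn 1.86 at 2 h and 2.21 at 24 h, and these 4 genes passed in all 3 states. Trh, with -0.81 at 2 h and -1.22 at 24 h, passed in all 3 states as well. Srgn exceeded the floor of the filter in 3 of the 6 groups, and Ccnb1ip1 and Cubn in 4. The WT mean in growing cells was under the floor for each of them. That filter took the means of irradiated cells too, so the differences of these genes there are not free of the selection. Among genes that passed in growing cells and at 2 h were Inhbb (1.76 at 2 h and 1.21 at 24 h), Etv4 (1.22 at 2 h and 1.09 at 24 h), Nras (0.85 at 2 h and 0.81 at 24 h), Ptch1 (-1.19 at 2 h and -0.81 at 24 h) and Gpc3 (-1.12 at 2 h and -1.01 at 24 h). Zbtb16 stood apart, at -1.12 in growing cells but 0.76 at 2 h and 0.08 at 24 h. Pcbp2 had 0.84 in growing cells and 0.34 at 2 h and -0.46 at 24 h. The difference between states was itself tested as an interaction, growing minus the mean of the irradiated states. By limma, 0 of 17736 probe sets passed (0.0%), with 1354 at an unadjusted p under 0.05 and a lowest adjusted p of 0.284, and the other settings gave 0 or 1. For Zbtb16 the interaction was -1.54 (unadjusted p = 4.61e-05, adjusted p = 0.288) and for Pcbp2 0.90 (adjusted p = 0.288). Of the 44 probe sets, 8 had an unadjusted interaction p under 0.05, against 1354 of all 17736, including probe sets of Pttg1, Fxr2, Laptm5, Suz12 and Eif5. The 44 were picked by their differences in growing cells, which enter the interaction, so this count cannot be read against that of all probe sets.

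**Figure D4:**
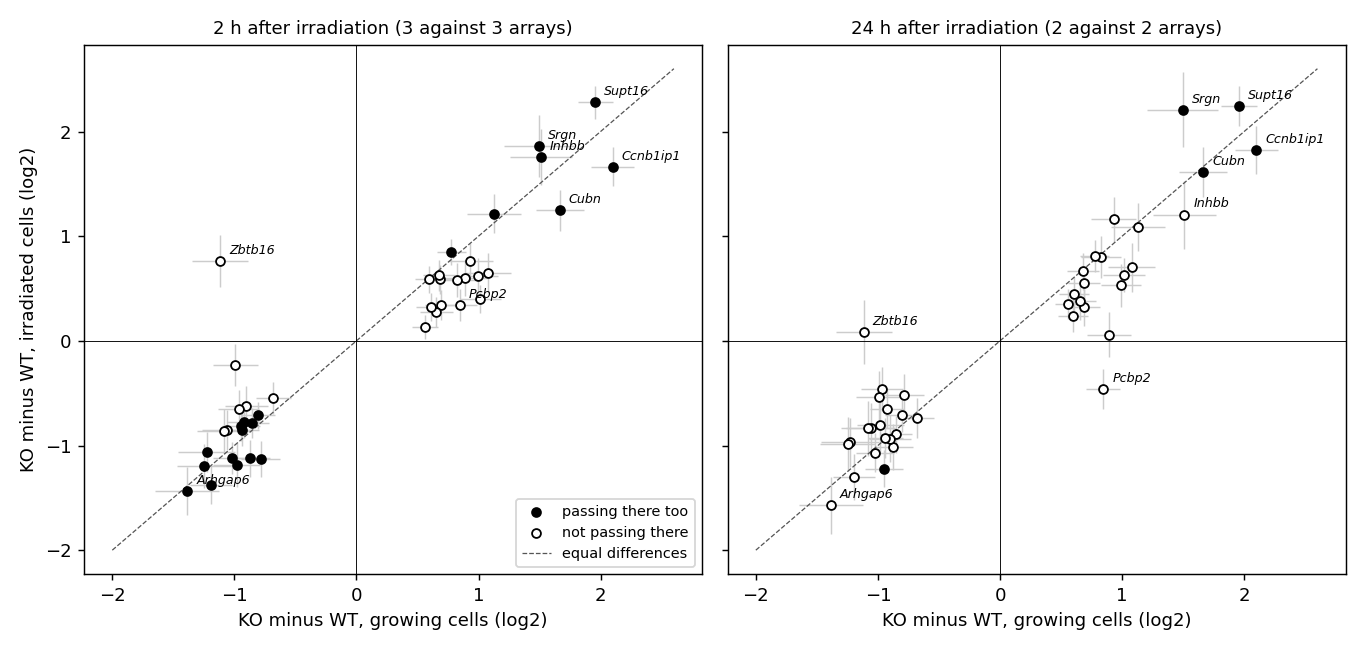
KO minus WT difference at 2 h (left) and 24 h (right) after irradiation (vertical axes, log2(intensity + 16)) against the difference in growing cells (horizontal axes) for the 41 named probe sets that passed in growing cells, bars being SE. Filled points passed in irradiated cells too, and the dashed line marks equal differences; Zbtb16 lies off the others at 2 h (0.76) and Pcbp2 at 24 h (-0.46).

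Gene lists describe the wider transcriptome, and some hold genes that passed. Lists and members were chosen with earlier results of these data known, so their counts and medians are descriptions and not tests. Each gene was represented by its brightest tested probe set, and counts are read against the background of all 10252 genes, of which 4.65% were higher and 6.09% lower in KO at an unadjusted p under 0.05, with a median of -0.04. Of 33 lists, 4 had a median above 0.1 and 7 a median below -0.1, against 14 and 4 after median centring, which moved the median of all genes to 0.05, and 6 and 5 after quantile normalization.

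In the primitive endoderm list, 26 genes were tested, 18 with a higher and 8 with a lower mean in KO. Cubn and Srgn passed adjustment, and 5 were higher and 1 lower at an unadjusted p under 0.05. The lower gene, named after its value was seen, was Dppa3, which is also in the naive state list. The median of the primitive endoderm list was 0.27, or 0.32 after quantile normalization and 0.37 after median centring. The lineage factors themselves were dim and did not pass. Gata6 had 23.2, 26.8 and 36.0 on the KO arrays, against 13.1, 17.1 and 26.4 on the WT arrays, a difference of 0.36 (adjusted p = 0.568). Gata4 had 28.5, 23.3 and 29.8 on the KO arrays, against 24.7, 9.2 and 25.3 on the WT arrays, and Sox7 had 12.6, 14.9 and 22.6 on the KO arrays, against 6.69, 9.64 and 13.9 on the WT arrays. These values overlap between genotypes and lie near the floor of 11.9, with differences of 0.31 and 0.32. Sox17, at 11.6, 10.3 and 26.9 on the KO arrays, against 15.3, 18.1 and 14.2 on the WT arrays, had -0.02, and Pdgfra, at 23.7, 11.1 and 24.6 on the KO arrays, against 22.7, 8.23 and 8.26 on the WT arrays, had 0.31. Dab2, an endocytic adaptor of the endoderm, had 74.6, 43.7 and 71.1 on the KO arrays, against 28.3, 26.7 and 40.5 on the WT arrays. It was higher on each KO array than on each WT array, but its difference of 0.71 did not pass (adjusted p = 0.262). The brightest list members, Ctsl at -0.08 and Sparc at 0.31, did not pass, and the median of the list was 0.37 at 2 h and 0.23 at 24 h, where all genes had 0.05 and 0.01.

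Of 15 tested visceral endoderm genes Cubn passed and no other, and the list median was -0.08, turning to 0.01 after median centring. Apoe (0.10) and Lefty1 (-0.58), its brightest members, did not pass. The parietal endoderm and basement membrane list had a median of -0.12 over 17 genes, with Vim at -0.06 and Sparc at 0.31. No member passed, 1 gene was higher and 1 lower at an unadjusted p under 0.05, and the member with the largest difference was Krt7 at -0.84.

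Genes of the undifferentiated state are described next. Pou5f1 had 1303, 1292 and 1543 on the KO arrays, against 1251, 1377 and 1389 on the WT arrays, and Sox2 had 708, 828 and 686 on the KO arrays, against 901, 614 and 756 on the WT arrays. Neither separated the genotypes, with differences of 0.04 and -0.02. Nanog had 601, 512 and 558 on the KO arrays, against 872, 721 and 666 on the WT arrays. All KO values were below all WT values, yet the difference of -0.42 did not pass (adjusted p = 0.358). Zfp42 (0.03) and Klf4 (0.33, adjusted p = 0.582) did not pass. In the core pluripotency list of 17 genes only Tcl1 passed, 2 were higher and 2 lower at an unadjusted p under 0.05, and the median was 0.05, or 0.14 with 4 higher and 1 lower after median centring. Dppa5a (-0.06) and Trim28 (0.08) were its brightest members. In the naive state list of 15 genes, 2 were higher and 4 lower, the median was 0.03 (0.13, with 3 higher and 2 lower, after median centring), and the brightest members Klf5 (0.44) and Klf2 (-0.46) lay on opposite sides of 0 without passing.

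The list of epiblast priming genes, which mark ES cells on the way to differentiation, had a median of 0.16, or 0.18 after quantile normalization and 0.26 after median centring. Within run 1 the list median was 0.03 and within run 4 it was -0.06, where all genes had -0.07 and -0.06. The run-block fit gave 0.06. Etv4 passed among 16 tested genes, and 3 were higher and 0 lower at an unadjusted p under 0.05. These counts were 3 and 2 after quantile normalization and 5 and 0 after median centring. Dnmt3b (0.10) and Etv5 (0.24), the brightest members, did not pass. In the FGF and ERK list of 26 genes, 5 were higher and 2 lower. The median was 0.14, or 0.12 after quantile normalization and 0.23 after median centring. In run 1 alone this median was 0.03, in run 4 alone -0.06 and under the run-block fit 0.08. Fgf4, the main FGF ligand of ES cells, had 938, 648 and 748 on the KO arrays, against 648, 637 and 386 on the WT arrays. The values touch without overlapping, and the difference of 0.49 did not pass (adjusted p = 0.437). The neuroectoderm list had a median of -0.29 over 11 dim genes, of which 1 was higher and 2 lower, and Tubb3 (-0.61), Mapt (-0.39) and Gbx2 (0.66) did not pass. The mesoderm and streak list had 0.05 over 12 genes, with Bmp4 at 0.09, Hand1 at -0.22 and Kdr at -0.42.

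Genes of the Polycomb and chromatin list leaned towards higher levels in KO. Of 26 tested genes of this list, 18 had a higher mean in KO, and at an unadjusted p under 0.05 7 were higher and 0 lower (background 4.65% and 6.09%). The median was 0.17, or 0.19 after quantile normalization and 0.26 after median centring, and the counts were 6 and 0 or 9 and 0 under these scalings. Kdm2b passed by its brightest probe set and Suz12 by another. The names that follow were chosen after their values were seen. Eed, the PRC2 subunit that reads trimethylated H3K27, had 932, 975 and 906 on the KO arrays, against 751, 699.5 and 829 on the WT arrays, and Ezh2, the catalytic subunit, had 706, 591 and 573 on the KO arrays, against 476, 527 and 539 on the WT arrays. For both, each KO value exceeded each WT value, but the differences of 0.30 (adjusted p = 0.468) and 0.27 (adjusted p = 0.454) did not pass. Aebp2 (0.29), Cbx7 (0.33) and Kdm5b (0.34) also had an unadjusted p under 0.05. The brightest members, the histone-binding proteins Rbbp4 (-0.01) and Rbbp7 (-0.07), did not pass. The list median was 0.13 at 2 h and 0.18 at 24 h. The DNA methylation list of 13 genes had a median of 0.03, with Dnmt3a at 1.04 (adjusted p = 0.247), Trim28 at 0.08 and Dnmt3l at 0.03.

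Hedgehog genes leaned the other way in growing cells. Of 12 tested genes, Ptch1 and Gpc3 passed, 1 was higher and 4 were lower at an unadjusted p under 0.05, and the median was -0.22, or -0.14 after quantile normalization and -0.13 after median centring. Gli1, a direct transcriptional target of the pathway, had 44.9, 49.8 and 57.2 on the KO arrays, against 53.2, 77.9 and 89.7 on the WT arrays. The groups overlap, and the difference of -0.41 did not pass (adjusted p = 0.449). Sufu, which restrains the GLI factors, had 68.5, 75.0 and 73.8 on the KO arrays, against 31.9, 58.2 and 47.6 on the WT arrays, with a difference of 0.54 (adjusted p = 0.278). Gli1 and Sufu were named after their values were seen. Gli2, the brightest member after Ptch1, had -0.06. In irradiated cells the list median was 0.16 at 2 h and 0.13 at 24 h, a change between states that was not tested, while the probe sets of Ptch1 and Gpc3 that passed stayed below 0 in both. The dimmer probe set of Ptch1 had 0.66 at 24 h (adjusted p = 0.522).

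Of 35 tested genes of the Nodal, activin and BMP list, only Inhbb passed, 3 were higher and 3 lower at an unadjusted p under 0.05, and the median was -0.06, with 0.03 after median centring. The brightest members Tdgf1 (0.12) and Lefty1 (-0.58) did not pass. Id2, a target of BMP signalling, had 21.5, 61.9 and 17.8 on the KO arrays, against 119, 93.2 and 87.0 on the WT arrays. KO replicate 2 was higher than the other KO arrays, no KO value reached the WT range, and the difference of -1.31 just missed the threshold (adjusted p = 0.0541). In the list of immediate-early genes, which respond within minutes to growth factors and to handling of cells, 1 of 23 was higher and 6 lower, and the median was -0.21, or -0.15 after quantile normalization and -0.12 after median centring. None passed. Fos, named after its values were seen, had 204, 193 and 195 on the KO arrays, against 271, 270.1 and 376 on the WT arrays, and Myc had 174, 189 and 225 on the KO arrays, against 124, 99.1 and 96.8 on the WT arrays. The groups did not overlap for either, in opposite directions, with differences of -0.58 (adjusted p = 0.283) and 0.79 (adjusted p = 0.122). Ier2 (-0.13) and Jund (0.38) were the brightest members.

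In the list of sterol synthesis genes 1 of 20 was higher and 4 lower, with a median of -0.19, or -0.16 after quantile normalization and -0.10 after median centring. None passed, among them Hmgcs1 (-0.03), Fdps (-0.14) and Scap (0.63). In the interferon list of 23 genes Parp12 passed, 1 was higher and 2 lower at an unadjusted p under 0.05, and the median was -0.15. Quantile normalization gave 3 higher, 3 lower and -0.07, and median centring 2 higher, 1 lower and -0.06. Ifitm1, a brightly expressed membrane protein of this list, had 784, 1011 and 711 on the KO arrays, against 1885, 1834 and 1211 on the WT arrays, and its difference of -0.95 did not pass (adjusted p = 0.0759). Imprinted genes had a median of -0.09 over 24 genes, turning to 0.01 after median centring, with Plagl1 at -1.14 (adjusted p = 0.204).

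Lists of general cell functions had medians within 0.1 of 0. In the list of RNA-binding and decay proteins, 42 were tested, Fxr2 passed, 3 were higher and 1 lower, and the median was 0.06, with Pabpc1 at 0.05 and Ybx1 at 0.19. Translation factors had 0.02 over 36 genes, cullin ubiquitin ligases 0.03 over 31, G1/S and replication genes -0.0032 over 40 and G2/M and mitosis genes -0.03 over 38. Klhl13 and Pttg1 were the members of these lists that passed. Integrated stress response genes had 0.02 over 30, LIF and STAT3 genes -0.01 over 19, Wnt genes 0.0038 over 29, cell adhesion genes -0.05 over 38 (turning to 0.04 after median centring, with Gpc3 passing) and glycolysis and hypoxia genes -0.10 over 26. Targets of p53 had -0.03 over 35 genes and apoptosis regulators -0.01 over 29, with 1 higher and 1 lower, and 1 higher and 0 lower, at an unadjusted p under 0.05. Median centring moved the RNA-binding median to 0.15 and the cullin median to 0.12, and it turned the sign of the p53, apoptosis, G1/S, G2/M and LIF medians, to between 0.06 and 0.09. The list of genes of the 2-cell state and germline had 0.08 over 13 genes, with Dazl at 0.81 (adjusted p = 0.226).

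**Figure D5:**
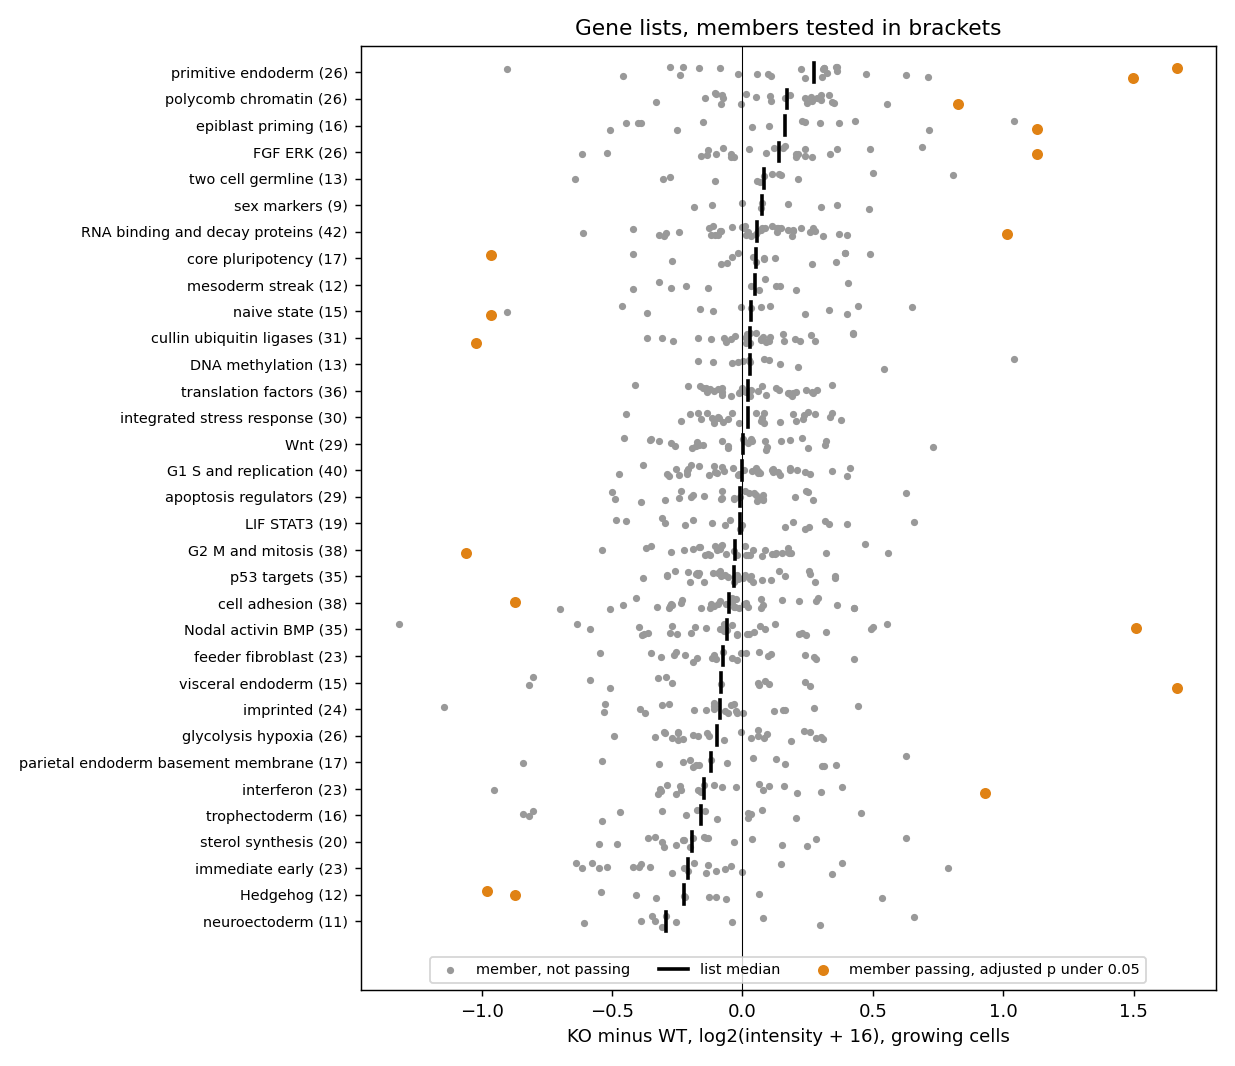
KO minus WT difference in growing cells (horizontal axis, log2(intensity + 16)) for the tested members of 33 gene lists, 1 list per line with the number of members tested in brackets, ordered by the list median (black bar). Orange points have an adjusted p under 0.05. The primitive endoderm list (0.27) and the Polycomb and chromatin list (0.17) have the highest medians. The neuroectoderm (-0.29) and Hedgehog (-0.22) lists have the lowest, and single members spread widely around every median.

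Just outside the threshold, with adjusted p-values from 0.0509 to 0.0595, were 10 genes that are given as values only. Ephx2 had 37.8, 38.4 and 42.3 on the KO arrays, against 82.7, 73.4 and 67.3 on the WT arrays, and Dnmt3a, on a dimmer probe set than the one above, had 77.5, 82.0 and 87.1 on the KO arrays, against 54.9, 33.7 and 20.2 on the WT arrays. Spint1 (0.67), Zbed3 (0.82), Fzd5 (0.73), Abca1 (0.76), Mllt10 (0.76) and Dnmt3a (0.96) had higher means in KO. Ephx2 (-0.70), Armcx1 (-0.95), Id2 (-1.31) and Clasp2 (-0.63) had lower means. Just inside it, Chmp2a and Plac8 had an adjusted p of 0.0493.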

How the data were processed

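Per the labels' protocols, RNA went through 1 round of amplification and biotin labelling before hybridisation to oligonucleotide arrays, 1 array per sample. The deposited intensity values, 1 per probe set and array, had been scaled by the authors to a trimmed mean of 100 (trim 2%, checked on the files); the sources used here do not name the software that summarised the probes. Of 22690 probe sets, 64 controls were left out. Of the rest, 20380 carried 1 gene symbol, 691 several and 1555 none. The analysis added 16, took log2 and kept 17736 probe sets whose mean in any group exceeded the 30th percentile (an intensity of 11.9). A mean was fitted for each of the 6 groups over all 16 arrays with limma 3.58.1 (R 4.3.3) with an intensity trend, so that groups share 1 estimate of spread (10 residual degrees of freedom). P-values were adjusted by Benjamini-Hochberg, and the fit was tested on simulated data. With 3 arrays against 3, an exact permutation test of a single gene could not go below 0.1. The number of arrays limits the precision. Genes named are those that passed, the next 10 outside the threshold and lineage markers, with exceptions stated. For part of the lists the brightest 2 members and the largest difference are named too. In other lists, such as p53 targets, translation factors and sex markers, some or all of these are left out. The members and lists were chosen with earlier results of these data known. No value is given here for the inactivated gene itself.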

Additional observations from a re-analysis of the deposited data

How the results depend on the processing

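In growing cells the 44 probe sets that passed became 25 with no filter on dim probe sets, 24 with no intensity trend, 82 with array weights, 144 with the hybridisation run as a block, 6 without the second hybridisation day, 23 without the 2 arrays of high 18S signal and 24 with arrays of growing cells alone. At 2 h the 41 became 12 with no filter, 79 with median centring, 27 with no trend, 162 with array weights, 144 with the run block, 4 without the second day and 70 when fitted with all 16 arrays. At 24 h the 8 became 3 with no filter, 5 with no trend, 4 with array weights, 14 with the run block and 4 without the second day. Leaving out 1 array gave 6 to 56 in growing cells, 6 to 57 at 2 h, 4 to 10 at 24 h and 0 to 1 for the interaction, where the 1 came without WT replicate 2 of growing cells or KO replicate 2 of 24 h; the 12 other settings gave 0 there. No direction of a named probe set turned under any setting, but 20 of 41 missed the threshold in 10 or more of 29, and Ahctf1 and Utrn passed in 9.

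With the replicate number as a block (replicate block) the counts were 124 in growing cells, including all 44, 154 at 2 h and 19 at 24 h. The same-numbered KO and WT arrays of growing cells deviated together with correlations of 0.143, -0.0916 and 0.136, so the numbers were not taken to pair the samples. The causes of these moves were not tested. The fitted differences of dim genes depended on the added constant: Ccnb1ip1 had 3.20 with 1 added and 1.10 with 64 added, and Srgn had 2.79 and 0.67.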
